A study of Mus musculus with 8 samples.

Results

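Rmrp, Rpph1, Rn7sk, Rn7s1, Rn7s2, Terc and Vaultrc5 are 7 structured noncoding RNAs of RNase complexes, 7S particles, telomerase and the vault. They were chosen by name, as the rows of the deposited count and FPKM tables whose Ensembl identifier maps to those symbols in GENCODE release M21. The 7 symbols took 8 of the 55471 identifiers, since Rmrp has 2. FPKM is the counts-per-million value (CPM) divided by the gene length in kilobases. Rpph1 and Rmrp were well covered, with at least 61 counts in every library, Rn7sk had 2 to 17 counts per library, and Rn7s1, Rn7s2, Terc and Vaultrc5 had 0 to 7. Only 3 of the 7, Rpph1, Rmrp and Rn7sk, passed the filter on low counts, and none of these passed the test in any comparison of the libraries. With the experiment as a term of the fit, Rn7sk passed with ODD and LacZ against Input, beside 12.6% and 12.7% of all genes called higher. Rn7sk entered that fit only because the higher counts of the captures took it past the filter. Which members passed with this term depended on the filter.

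Each of these RNAs works within a ribonucleoprotein. Rpph1 is the catalytic RNA of RNase P, which trims the 5′ leader from transfer RNA precursors, and Rmrp is its relative in RNase MRP, which cuts ribosomal RNA precursors and shares most of the protein subunits. Rn7sk is the 7SK RNA, which holds the elongation kinase P-TEFb in an inactive particle with Larp7, Mepce and Hexim1. Rn7s1 and Rn7s2 are genes of the 7SL RNA of the signal recognition particle, which brings ribosomes with a signal peptide to the endoplasmic reticulum. Terc is the template RNA of telomerase, and Vaultrc5 is a vault RNA, a small component of the vault particle. Apart from Terc, which RNA polymerase II makes, they are products of RNA polymerase III and are abundant or active in most cell types, with telomerase low in differentiated cells.

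The libraries were made from mouse spinal motor neurons differentiated from the HBG3 embryonic stem cell line, which carries a green fluorescent protein gene under the Hb9 promoter, a promoter active in motor neurons. All samples are of this 1 line. The stem cells were kept with LIF and inhibitors of the FGF receptor and Gsk-3, and the neurons were dissociated with papain and grown for 3 more days with BDNF, CNTF and GDNF among the additions. Input is RNA before capture. ODD and EVEN are captures with separate sets of biotinylated antisense probes of 20 nt against the long noncoding RNA Lhx1os, and LacZ is the capture with probes against the LacZ mRNA, the negative control. Each group had 2 libraries, numbered by 2 independent experiments, so p-values measure the spread between these few samples. Counts are reads without molecular identifiers, and intervals cover counting error only.

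Libraries held 7632775 to 24628435 counts, LacZ replicate 1 the fewest and Input replicate 1 the most, and 21348 to 22954 identifiers had a count in a library. Lhx1os had 55 and 61 counts in the Inputs, 16 and 28 with LacZ, 2239 and 371 with ODD, and 1767 and 283 with EVEN, so all 4 libraries captured with its probes lay above the other 4. Of the motor neuron markers, Mnx1 was at 21.2 to 30.7 FPKM and Chat at 2.69 to 15.0. The progenitor marker Sox2 was also present, at 69.9 to 149 FPKM, as was the oligodendrocyte lineage marker Sox10, at 10.2 to 71.0. The astrocyte markers were near 0, with Gfap at 0 to 0.213 and Aqp4 at 0.0383 to 0.168 FPKM, and Pou5f1 was at 0. The cultures of the 2 experiments differed. In edgeR's quasi-likelihood test with the experiment as a block, Isl1, Isl2, Chat, Slc18a3 and Slc5a7 were higher in experiment 2, by 0.67 to 1.78 log2. The other motor neuron markers, Mnx1 and Lhx3, were not called, at 0.06 (adjusted p = 0.749) and 0.22 (adjusted p = 0.415). The 7 motor neuron markers summed to 99.7 to 111 FPKM per library in experiment 2 and 60.1 to 67.2 in experiment 1. Of the 12 markers of other cells, 8 were tested, and Sox2, Olig2 and Sox10 were lower and En1 higher in experiment 2 (summed FPKM 241 to 307, and 383 to 518 in experiment 1). Of all genes tested, 12.4% were called lower in experiment 2, and the share called higher is not given here. In bulk libraries, fewer cells of a type and less RNA per cell cannot be told apart.

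The sequences of the RNAs that carry the results are shown as they lie in GENCODE M21 on GRCm38, because their overlaps and copies bear on how reads could be assigned. In Rpph1 (chr14:50807449-50807767, minus strand, 319 bp) the capitals mark the 233 bases that lie within an exon of the protein-coding gene Ccnb1ip1 on the same strand. In Rmrp (chr4:43492783-43493063, minus strand, 281 bp) the capitals mark the 5 bases at each end that lie outside the second Rmrp identifier, of 271 bp. Rn7s1 (chr12:69159295-69159594, plus strand) and Rn7s2 (chr12:69361182-69361481, minus strand) are each 300 bp and differ at 0 bases. Rn7sk (chr9:78175303-78175633, minus strand) is 331 bp. Rpph1 and Rn7sk are shown for their first 300 bases.
Rpph1: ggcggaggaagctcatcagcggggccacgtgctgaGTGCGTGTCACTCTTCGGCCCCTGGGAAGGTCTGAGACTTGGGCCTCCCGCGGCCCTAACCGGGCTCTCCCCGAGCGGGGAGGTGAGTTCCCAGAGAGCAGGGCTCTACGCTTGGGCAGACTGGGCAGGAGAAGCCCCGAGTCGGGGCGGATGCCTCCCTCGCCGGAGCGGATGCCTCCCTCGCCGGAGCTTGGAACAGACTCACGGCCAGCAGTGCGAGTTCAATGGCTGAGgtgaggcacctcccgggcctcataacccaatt
Rmrp: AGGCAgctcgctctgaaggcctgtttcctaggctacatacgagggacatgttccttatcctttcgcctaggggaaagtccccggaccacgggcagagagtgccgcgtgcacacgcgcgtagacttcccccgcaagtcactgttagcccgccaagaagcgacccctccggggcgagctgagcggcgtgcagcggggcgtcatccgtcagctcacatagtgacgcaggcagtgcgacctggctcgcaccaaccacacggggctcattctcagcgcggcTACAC
Rn7sk: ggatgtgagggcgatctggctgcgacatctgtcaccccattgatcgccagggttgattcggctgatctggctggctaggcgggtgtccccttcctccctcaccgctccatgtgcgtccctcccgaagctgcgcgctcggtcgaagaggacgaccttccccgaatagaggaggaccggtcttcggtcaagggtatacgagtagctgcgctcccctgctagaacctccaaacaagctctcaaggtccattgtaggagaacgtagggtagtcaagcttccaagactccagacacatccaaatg

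Where members overlap another identifier on the same strand, nearly all counts fell on 1 of the pair. At the Rpph1 site, Rpph1 had 1987 to 7056 counts per library and the overlapping Ccnb1ip1, a ring-finger protein of meiotic recombination, had 1 to 9. At the Rmrp site, the longer identifier (ENSMUSG00000115420, annotated as a lincRNA) held all counts and the nested one (ENSMUSG00000088088, annotated as a ribozyme) was at 0 in all 8 libraries. The 2 identifiers share 271 of the 281 bp. How reads that fit both were counted is not stated in the sources used here, so these counts may not give the level of Rmrp. An exon of the protein-coding gene Ccdc107 overlaps 124 bp of Rmrp on the opposite strand, and Ccdc107 had 84 to 227 counts. The kit keeps the strand, but the sources used here do not state whether counting used it, so reads of Rmrp and Ccdc107 in that stretch may not be separated. Terc is at chr3:96414437-96414859 on the minus strand, with 423 bp.

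**Figure D1:**
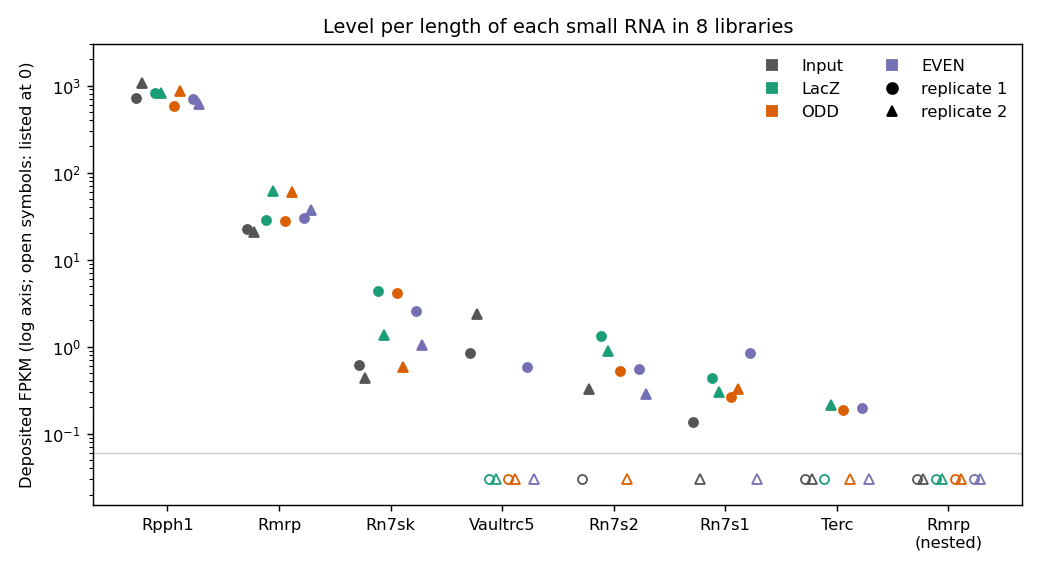
Deposited FPKM of the 8 identifiers (log axis) in each of the 8 libraries, with colour for the group and symbol for the replicate; open symbols below the grey line are listed at 0. Rpph1 lies between 587 and 1078 FPKM and Rmrp between 20.8 and 61.3, while Terc and the nested Rmrp identifier are mostly or wholly at 0.

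The study set each capture against Input to find RNAs recovered with the probes. Of the 7 RNAs, 3 passed the filter on low counts (Rpph1, Rmrp and Rn7sk), and Rn7sk passed it through the higher counts of the captures, so the 3 do not stand for all 7. By the quasi-likelihood test of edgeR, with p-values adjusted after Benjamini and Hochberg, 0 of the 3 passed the threshold of 0.05 in ODD against Input, where 6.84% of the 16524 genes tested did. The count was 0 in EVEN against Input, where 5.66% of genes passed, and 0 in LacZ against Input, where 7.41% passed. No member had an unadjusted p under 0.05, as 18.3%, 18.8% and 18.9% of genes did, and the lowest was 0.0605 for Rmrp with LacZ. DESeq2 also called 0 of the 3, with unadjusted p-values of 0.0474 for Rmrp with ODD and 0.0428 with LacZ. With the experiment as a block, 1 of the 3, Rn7sk, passed as higher with ODD and with LacZ and 0 passed with EVEN, beside 12.6%, 12.7% and 12.8% of all genes called higher. The median log2 fold change of the 3 was that of Rmrp each time, at 1.00 with ODD, 0.66 with EVEN and 1.02 with LacZ. Over all genes the medians were -0.03, -0.00 and -0.05. Because Rn7sk, which lay above Rmrp, passed the filter through its captures, the median of the 3 does not describe the 7 RNAs.

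The captures were also set against the LacZ control, which asks whether recovery depended on the Lhx1os probes. For the average of both probe sets against LacZ, edgeR's quasi-likelihood test called 0 members and 0% of genes, with 1.32% of genes at an unadjusted p under 0.05. The log2 difference was -0.21 ± 0.21 (SE) for Rpph1, -0.19 ± 0.39 for Rmrp and -0.34 ± 0.82 for Rn7sk. Each of the 3 estimates was smaller than its standard error. No member was called in ODD against LacZ, EVEN against LacZ or ODD against EVEN either, where 0% of genes passed and 1.03%, 1.71% and 0.775% had an unadjusted p under 0.05. With DESeq2 and with the block, 0 members were called in these 4 comparisons, although DESeq2 gave Rn7sk no adjusted p in EVEN against LacZ. The standard errors of these 4 differences were 0.82 to 0.96 log2 for Rn7sk and 0.21 to 0.25 for Rpph1. For the average of both probe sets against LacZ, the target Lhx1os was at 5.42 ± 1.10 log2 (SE). Even so, edgeR's quasi-likelihood test did not call it, with adjusted p of 0.9999. DESeq2 called it, with adjusted p of 2.2e-09. The 0 calls of edgeR therefore cannot show that recovery did not depend on the probes.

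**Figure D2:**
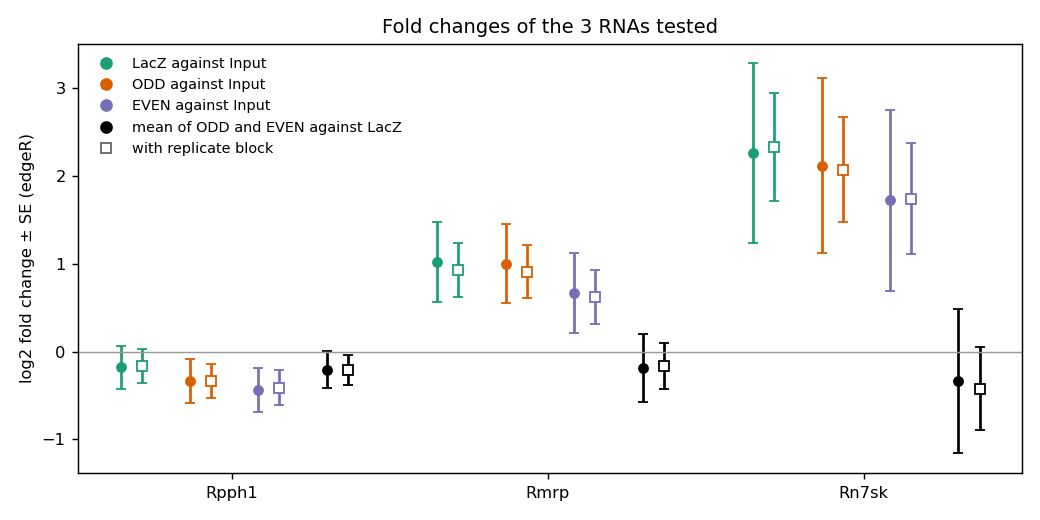
Log2 fold changes (points) with standard errors (bars) of Rpph1, Rmrp and Rn7sk for each capture against Input and for the average of both probe sets against LacZ, filled without and open with the experiment as a block. Rpph1 lies just below 0, Rmrp between 0.62 and 1.02 and Rn7sk between 1.72 and 2.33 over Input, and all 3 lie within about 1 standard error of 0 or just past it against LacZ.

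Rpph1 (ENSMUSG00000092837), the RNase P RNA, had by far the most counts and the highest FPKM of the 7. Its FPKM was 728 and 1078 in the Inputs, 816 and 823 with LacZ, 587 and 857 with ODD, and 703 and 609 with EVEN. The group means were 903 ± 247 (SD, n = 2), 820 ± 4.89, 722 ± 191 and 656 ± 66.9. Input replicate 2 was the highest library and ODD replicate 1 the lowest, and the ranges of Input, ODD and LacZ overlapped, while both EVEN libraries lay below both Inputs, as 20% of all genes tested did. Per length it ranked between 2 and 12 among all identifiers in every library, and it held 98.3% of all counts of the ribozyme class.

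In TMM-scaled CPM, Rpph1 had 236 and 344 in the Inputs, 256 and 255 with LacZ, 189 and 270 with ODD, and 226 and 202 with EVEN. The log2 fold change over Input was -0.34 ± 0.25 (SE) with ODD, -0.44 ± 0.25 with EVEN and -0.18 ± 0.25 with LacZ, with adjusted p of 0.566, 0.412 and 0.795 in edgeR's quasi-likelihood test. None of these passed the threshold, and the LacZ estimate turned to 0.11 without Input replicate 2. Within experiment 1 the ratio to Input was 0.802 with ODD, 0.959 with EVEN and 1.09 with LacZ, and within experiment 2 it was 0.786, 0.586 and 0.741. The largest within-experiment departure was thus the lower EVEN value of experiment 2. The replicates differed by about as much as the groups: Rpph1 was at 0.22 ± 0.14 (SE) log2 in experiment 2 over experiment 1 in the block fit, with adjusted p of 0.267.

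Rprl3, an RNase P RNA-like gene of similar sequence, was also measured, and was chosen after its values were seen. It had 113 and 112 counts in the Inputs, 36 and 55 with LacZ, 33 and 47 with ODD, and 52 and 31 with EVEN. Its log2 fold change over Input was -0.50 ± 0.36 (SE) with ODD and -0.49 ± 0.36 with EVEN, with adjusted p of 0.556 and 0.546 in the same edgeR test. Of 10 identifiers with at least 80% identity to Rpph1 over at least 80 nt, 8 are small RNAs by class (misc_RNA or ribozyme). Of these 8, 2 had a count, with 482 counts in all beside the 27764 of Rpph1. The rest of the similar identifiers were left out of this sum. Reads that fit both Rpph1 and Rprl3 could have been split between them.

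Rmrp (ENSMUSG00000115420), the RNase MRP RNA, was at 22.3 and 20.8 FPKM in the Inputs, 28.4 and 61.3 with LacZ, 28.0 and 59.6 with ODD, and 30.2 and 37.0 with EVEN. All 6 capture libraries lay above both Inputs, as 17.7% of all genes tested did in CPM. The values split by experiment: LacZ and ODD replicate 2 were near 60 FPKM, and the replicate 1 captures were near 30. Per length, Rmrp ranked 2453 and 2753 in the Inputs and as high as 435 in LacZ replicate 2.

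The log2 fold change of Rmrp over Input was 1.00 ± 0.45 (SE) with ODD, 0.66 ± 0.45 with EVEN and 1.02 ± 0.46 with LacZ. The adjusted p was 0.306, 0.514 and 0.293 in edgeR's quasi-likelihood test. With the experiment as a block the fold changes were 0.91, 0.62 and 0.93, with adjusted p of 0.0781, 0.193 and 0.0744, and with the block and no filter on low counts the adjusted p was 0.0334 with ODD, 0.179 with EVEN and 0.0334 with LacZ, a fit that called 12.8%, 12.9% and 13.4% of all genes. The call for Rmrp with ODD and LacZ thus depended on these choices. In the fit without the block, the ODD estimate was 0.38 without ODD replicate 2 and the LacZ estimate was 0.36 without LacZ replicate 2.

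Within experiment 1, Rmrp was 1.26 times Input with ODD, 1.35 times with EVEN and 1.24 times with LacZ. Within experiment 2 the ratios were 2.83, 1.85 and 2.86. Every ratio was above 1, and ODD over LacZ was 1.01 in experiment 1 and 0.989 in experiment 2. The difference between experiments was in the captures: replicate 1 over replicate 2 was 1.09 in the Inputs, 0.471 with LacZ, 0.482 with ODD and 0.792 with EVEN. Over all groups Rmrp was 0.579 ± 0.217 (SE) log2 higher in experiment 2, with adjusted p of 0.0868 in the block fit, which misses the threshold. The overlapping Ccdc107 was not called, and its log2 fold change over Input was -0.08 ± 0.34 with ODD, 0.06 ± 0.34 with EVEN and 0.16 ± 0.34 with LacZ.

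Rn7sk (ENSMUSG00000065037), the 7SK RNA, had 5 and 3 counts in the Inputs, 11 and 5 with LacZ, 17 and 2 with ODD, and 10 and 4 with EVEN. In CPM these were 0.206 and 0.146, 1.42 and 0.435, 1.37 and 0.192, and 0.846 and 0.360. Of the 6 captures, 5 lay above both Inputs, and ODD replicate 2 lay between the Inputs. Summed over each group, the share of counts was 4.81 times Input with LacZ (95% exact interval 1.94 to 13.0), 4.69 times with ODD (1.96 to 12.4) and 3.37 times with EVEN (1.32 to 9.27).

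The log2 fold change of Rn7sk over Input was 2.12 ± 1.00 (SE) with ODD, 1.72 ± 1.03 with EVEN and 2.26 ± 1.02 with LacZ, with adjusted p of 0.328, 0.447 and 0.300 in edgeR's quasi-likelihood test. With the experiment as a block it was 2.07 ± 0.60, 1.74 ± 0.63 and 2.33 ± 0.61, with adjusted p of 0.0489, 0.0957 and 0.0352. The ODD and LacZ values passed the threshold under the block and the EVEN value missed it, but Rn7sk entered that fit only because the higher counts of the captures took it past the filter. With the block and no filter the adjusted p was 0.0661 with ODD, which misses the threshold, 0.157 with EVEN and 0.0406 with LacZ. In the fit without the block, the estimate was 0.10 with ODD without its replicate 1, 0.98 with EVEN without its replicate 1, and 1.24 with LacZ without its replicate 1. Rn7sk was lower in experiment 2 than in experiment 1, at -1.60 ± 0.43 log2 with adjusted p of 0.0295 in the block fit, where 12.4% of genes were called lower. The same term for Rmrp was positive and missed the threshold. The marker lists moved with the experiment too, and their part in these differences was not tested.

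The Rn7sk sequence has 46 similar identifiers of at least 80% identity over at least 80 nt, a set chosen after the values were seen. Of these, 7 had a count, led by Gm25780 with 32 counts over the 8 libraries, Gm24893 with 19 and Gm23037 with 18. Together the copies held 80 counts beside the 57 of Rn7sk itself. Summed with Rn7sk they gave 10 and 7 counts in the Inputs, 16 and 21 with LacZ, 34 and 16 with ODD, and 21 and 12 with EVEN. Scaled to the library total, the sum in CPM was 0.406 and 0.341 in the Inputs and 2.096 and 1.88 with LacZ. It was 2.71 and 1.56 with ODD, and 1.76 and 1.04 with EVEN. All 6 captures thus lay above both Inputs, as 17.7% of all genes tested did in TMM-scaled CPM. Over each group the sum was 5.23 times Input with LacZ (95% exact interval 2.87 to 9.91), 5.81 times with ODD (3.30 to 10.8) and 3.74 times with EVEN (2.02 to 7.15). The sources used here do not state how reads that fit several copies were assigned.

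**Figure D3:**
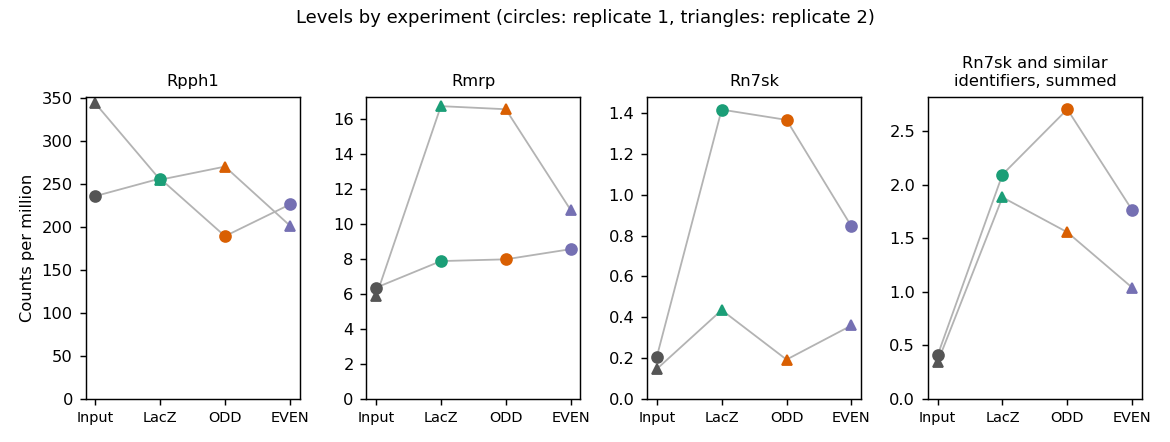
CPM of Rpph1, Rmrp, Rn7sk (TMM-scaled) and of Rn7sk summed with its similar identifiers (scaled by the library total), with grey lines joining the libraries of 1 experiment. Rmrp captures are higher in replicate 2, at up to 16.7, Rn7sk captures are higher in replicate 1, at up to 1.42, and in the summed panel both experiments lie above their Input.

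Rn7s1 (ENSMUSG00000099021) had 1 and 0 counts in the Inputs, 1 and 1 with LacZ, 1 and 1 with ODD, and 3 and 0 with EVEN. Rn7s2 (ENSMUSG00000099250) had 0 and 2 in the Inputs, 3 and 3 with LacZ, 2 and 0 with ODD, and 2 and 1 with EVEN. These 2 identifiers were thus barely covered in any library, although both are annotated with a full 300 bp. How reads that fit both were counted is not stated in the sources used here. Their low counts may therefore not give the level of 7SL RNA. As the 2 sequences are identical, reads cannot be told apart by sequence, and the pair was summed: 3 counts in the Inputs, 8 with LacZ, 4 with ODD and 6 with EVEN. The 18 capture counts gave 4.16 times the Input share, with a 95% exact interval from 1.22 to 22.1. This ratio rests on 3 Input counts, neither gene passed the filter on low counts, and neither was called in the fit without it. By the criterion used for Rn7sk, each gene has 11 similar small RNA identifiers, the other of the pair included.

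Terc (ENSMUSG00000064796), the telomerase RNA, had 0 counts in both Inputs, and 1 count each in LacZ replicate 2, ODD replicate 1 and EVEN replicate 1. A count of 0 in the Inputs allows up to 0.0665 CPM, from 3 counts over the summed Input total. Terc was thus not detectable in the Inputs, and no difference from the captures can be shown at this depth.

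Vaultrc5 (ENSMUSG00000065145, 143 bp) had nearly all its counts in the Inputs, where the captures were nearly empty. It had 3 and 7 counts in the Inputs, 0 and 0 with LacZ, 0 and 0 with ODD, and 1 and 0 with EVEN. Both Inputs lay above all 6 captures, and the closest were Input replicate 1 at 0.124 CPM and EVEN replicate 1 at 0.0846. The same order held for 13.5% of the genes tested, but those, unlike Vaultrc5, had passed the filter on low counts. Scaled to the library total, 3 counts are 0.239 to 0.393 CPM in the captures, above Input replicate 1 at 0.122. The captures thus could not resolve a level like that of Input replicate 1. Over all captures the share of counts was 0.0694 times Input, with a 95% exact interval from 0.0016 to 0.488. The intervals for single groups were wider, with an upper bound of 1.07 with LacZ, 0.882 with ODD and 1.35 with EVEN. Vaultrc5 did not pass the filter on low counts. In the fit without that filter, edgeR called 0 of the 7 RNAs against Input, beside 7.32% of genes with ODD, 6.6% with EVEN and 7.51% with LacZ.

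The protein partners of these RNAs were measured through their mRNAs. None of the 11 RNase P and MRP proteins, the 7 proteins of the 7SK particle and P-TEFb, the 9 tested of 10 of the signal recognition particle and its receptor, the 7 telomerase proteins or the 3 vault proteins was called by edgeR's quasi-likelihood test in any of the 7 comparisons. Over Input their medians lay between -0.27 and 0.38 log2. The most abundant member per length of each list was Rpp25l at 18.3 FPKM, Ccnt2 at 15.6, Srp68 at 45.2, Nhp2 at 45.0 and Parp4 at 3.07. With the experiment as a block, Srpr and Srprb, the subunits of the receptor on the endoplasmic reticulum, were lower with ODD, at -0.63 (adjusted p = 0.0442) and -0.42 (adjusted p = 0.0451) log2. Srprb was also lower with EVEN at -0.48 (adjusted p = 0.0305) and with LacZ at -0.51 (adjusted p = 0.0242). Under the block 6.55% of all genes were called lower with ODD, 6.41% with EVEN and 7% with LacZ. In the fit without a filter on low counts, the telomerase protein gene Nop10 was called lower, at -1.12 with ODD (adjusted p = 0.0240) and -1.04 with EVEN (adjusted p = 0.0456).

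Pop5, a subunit shared by RNase P and RNase MRP, stood apart from the other proteins of its list and was chosen after its values were seen. It had 211 and 291 counts in the Inputs, 71 and 62 with LacZ, 116 and 76 with ODD, and 389 and 215 with EVEN. EVEN over LacZ was 3.60 in experiment 1 and 3.58 in experiment 2 in CPM. The log2 fold change of EVEN over LacZ was 1.85 ± 0.41 (SE), with an unadjusted p of 0.00283 and an adjusted p of 1.00 in edgeR's quasi-likelihood test. DESeq2 gave an adjusted p of 0.0435 and the fit with no filter 3.73e-04, so the call depended on the tool and on the filter. Against Input, Pop5 with EVEN was at 1.19 ± 0.40 log2 with adjusted p of 0.158, and ODD over LacZ was 0.21 ± 0.41. With no filter, Pop5 was also called in EVEN against Input, at 1.16 log2 (adjusted p = 0.0137), and in ODD against EVEN, at -1.65 (adjusted p = 0.00362).

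Among 17 other structured small RNAs listed for comparison, 4 were tested. Rnu11, the U11 RNA of the minor spliceosome, had 8 and 10 counts in the Inputs, 98 and 104 with LacZ, 91 and 115 with ODD, and 76 and 131 with EVEN. It rose over Input by 4.71 log2 with LacZ (adjusted p = 0.00338), 4.47 with ODD (adjusted p = 0.00379) and 4.46 with EVEN (adjusted p = 0.00513). Beside it, 6.98% of all genes tested rose with LacZ, 6.46% with ODD and 5.37% with EVEN. Like Rn7sk, Rnu11 was tested only because the higher counts of the captures took it past the filter. Rny1, a Y RNA bound by the Ro protein, was lower with ODD at -1.24 log2 (adjusted p = 0.0475), and with the block it was also lower with EVEN at -1.05 (adjusted p = 0.0221) and with LacZ at -0.86 (adjusted p = 0.0430). Its counts were 162 and 159 in the Inputs, 36 and 39 with LacZ, 35 and 34 with ODD, and 44 and 36 with EVEN. Without the block, 6.84% of all genes passed with ODD in either direction. Under the block, 6.41% were called lower with EVEN and 7% with LacZ. Rnu12, the U12 RNA and the most abundant of the list at a mean of 78.9 FPKM, split by experiment instead, with 18 to 28 counts in the captures of experiment 1 and 247 to 355 in those of experiment 2. The fourth, Rny3, was not called. Without the filter on low counts, 9 of the 17 were tested. In that fit 2 were called higher and 2 lower with ODD, and 2 higher and 1 lower with each of EVEN and LacZ. Beside these, 7.32% of all genes were called in either direction with ODD, 6.6% with EVEN and 7.51% with LacZ.

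**Figure D4:**
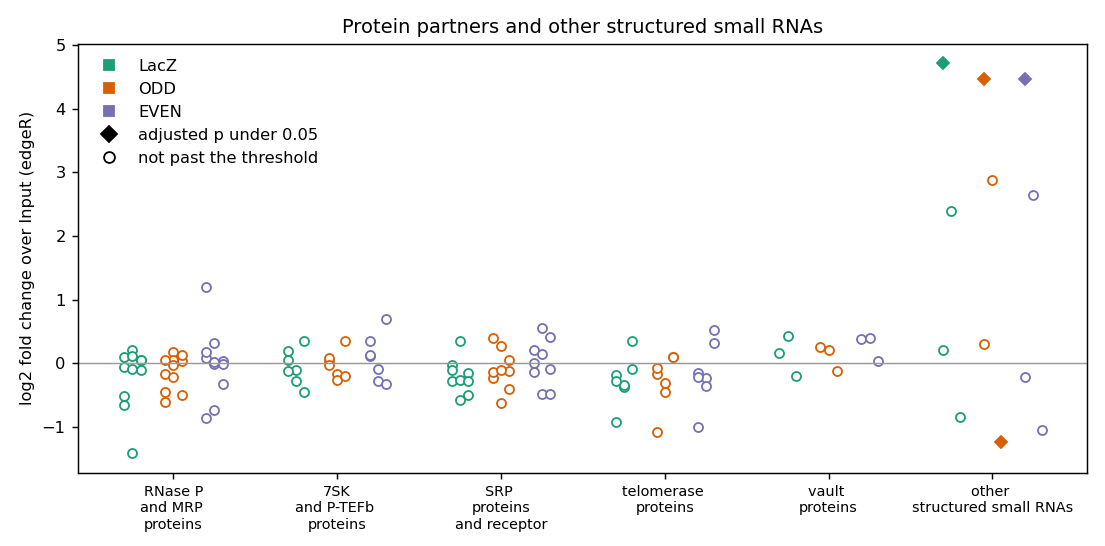
Log2 fold changes over Input of each tested protein partner and each tested other structured small RNA, by capture (colour); filled diamonds passed the adjusted threshold. The partner proteins cluster around 0, while Rnu11 lies above 4 in all captures and Rny1 is called lower with ODD.

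Set against its annotation classes, Rn7sk is 1 of 562 misc_RNA identifiers, of which 91 had any count, and Rpph1 is 1 of 22 ribozymes, of which 4 had one. Of the 31 snoRNAs tested, 8 rose with ODD, 9 with EVEN and 9 with LacZ over Input, with median log2 fold changes of 4.35, 4.31 and 4.21. Of the 11 scaRNAs tested, 4, 4 and 5 rose. The classes hold 1507 snoRNA and 51 scaRNA identifiers, and only those past the filter on low counts were tested. An RNA can pass that filter through its captures alone, as Rn7sk did, so these calls and medians do not describe the classes. Of all genes tested, 6.46% rose with ODD, 5.37% with EVEN and 6.98% with LacZ. No snoRNA or scaRNA was called against LacZ by edgeR's quasi-likelihood test, which did not call the target Lhx1os there either.

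The genes most like Rpph1 across the 8 libraries, by Pearson's r of log2(CPM + 1) among 10567 candidates, were Slain2 (r = 0.925), Arfgap3 (0.925), Rhbdd3 (0.920), Tuba1c (0.917) and Tent2 (0.910). The libraries share their 2 experiments and 4 groups, and this is a description. Rpph1 and Rmrp, which share protein subunits, had r = -0.09 over the same libraries.

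Sequence shared with Lhx1os was counted as the longest exact run of bases between each RNA and the Lhx1os transcripts. On the complementary strand the longest run was 11 nt for Rpph1, 9 nt for Rn7sk, 8 nt for Rn7s1 and 7 nt for Rmrp. Of 5627 annotated transcripts of 250 to 350 nt, 7.61% had a run at least as long as that of Rpph1, 62.4% as that of Rn7sk, 97.4% as that of Rn7s1 and 100% as that of Rmrp. On the same strand the longest run was 10 nt for Rn7sk, 9 nt for Rpph1, 8 nt for Rmrp and 8 nt for Rn7s1. Runs at least as long were found in 28.8%, 67.25%, 97.9% and 97.9% of these transcripts. Any relation of these runs to the fold changes was not tested. GC content was 67.1% for Rpph1, 63.7% for Rmrp and 58.0% for Rn7sk. A shared run is a description of these letters and not a site.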

How the data were processed

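The data are RNA-seq libraries, 8 in all, of mouse motor neurons. The authors deposited read counts per Ensembl gene, with gene lengths, and FPKM values. The submitters' processing notes name cutadapt 3.2, Bowtie2 2.4.2, Picard, HTSeq 0.13.5 and GRCm38. The treatment of overlapping or multiply mapping reads, and of strand, is not stated in the sources used here. Deposited FPKM was equal to the count over gene length and column total, with a largest relative difference of 6.66e-14. For 99.1% of the 55230 identifiers found in GENCODE M21, the deposited length was that of the merged exons, so coordinates and sequences come from that release. None of the members is in the RefSeq promoter table.

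The quasi-likelihood test of edgeR 4.0.16 (R 4.3.3) was run on the deposited counts of all 8 libraries, with group as the only term, TMM normalisation (factors 0.965 to 1.03) and edgeR's default filter by group, which left 16524 genes. P-values are two-sided, with Benjamini-Hochberg adjustment over all genes tested and a threshold of 0.05. The scripts were tested on simulated counts. Totals per library were 7632775 to 24628435, so RNAs of a few counts are known imprecisely. Replicates differed beyond sampling noise, with chi-square per degree of freedom of 34.5 to 67.4. The labels give the replicate as a batch of 2 independent experiments, and deviations from group means correlated at r = 0.534 to 0.765 between same-numbered libraries of all 6 group pairs, so the numbers pair libraries and the block is an alternative. Alternatives were this block, DESeq2 1.42.0, RLE, library size alone, no filter, a filter of 50 counts in 2 libraries, limma 3.58.1 on log2(FPKM + 1) and log2(FPKM + 0.1), a fit of only the groups compared, and leaving out each library; the block with no filter was added after seeing the data. Similar identifiers were found with blastn 2.17.0.

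The members and lists were chosen with earlier results of these data known. All members are named. From the partner and small RNA lists, the most abundant of each list per length is named. Genes of these lists past the threshold in edgeR, with group alone or with the block, are named too. Not all genes past it in the fit without a filter are named, and exceptions are marked. The sequences of Vaultrc5, Rn7s1 and Rn7s2 and the position of Vaultrc5 are not reported here.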

Additional observations from a re-analysis of the deposited data

How the results depend on the processing

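With the replicate block, 1 member was called in ODD against Input and 1 in LacZ against Input, Rn7sk in both, against 0 without the block. With the replicate block and no filter, chosen after seeing the data, the numbers were 1 (Rmrp, with Rn7sk no longer called) and 2 (Rmrp and Rn7sk). The block changed no other call of a member. No other alternative called a member in any comparison, though 2 members were tested with the filter of 50 counts and, outside ODD against LacZ and the average of both probe sets against LacZ, in the fit of only the groups compared. For Rn7sk in ODD against EVEN, limma on log2(FPKM + 0.1) gave -0.035 against 0.40; the cause was not tested. Leaving out single libraries changed signs, with log2 ranges of -0.43 to 0.11 for Rpph1 in LacZ against Input, and for the average of both probe sets against LacZ -1.35 to 0.67 (Rn7sk) and -0.62 to 0.47 (Rmrp). For ODD against LacZ the ranges were -2.15 to 0.87 (Rn7sk), -0.63 to 0.64 (Rmrp) and -0.43 to 0.079 (Rpph1), for EVEN against LacZ -1.28 to 0.47 (Rn7sk) and -0.79 to 0.30 (Rmrp), and for ODD against EVEN -1.61 to 1.16 (Rn7sk), -0.28 to 0.78 (Rmrp) and -0.18 to 0.34 (Rpph1).

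Over all genes, 1130 passed in ODD, 935 in EVEN and 1224 in LacZ against Input; with the replicate block 3169, 3182 and 3249 did, with no filter 2064, 1860 and 2118, and with the filter of 50 counts 535, 494 and 565. Leaving out 1 library gave 132 to 895, 0 to 737 and 214 to 1004. DESeq2 called 1452 and limma on log2(FPKM + 1) 440 genes in EVEN, and only the groups compared gave 709 in ODD and 477 in EVEN. Between captures 0 genes passed; DESeq2 called 2 for the average of both probe sets against LacZ, 1 and 13 for ODD and for EVEN alone and 2 between the probe sets, and the fit with no filter called 81, 75, 72 and 50.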
